A study of Mus musculus with 15 samples.

Results

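Astrocyte identity genes and genes that astrocytes induce when they become reactive were followed in cerebellar cultures stimulated with interleukin-12. The 38 genes were chosen by symbol, 25 as identity genes and 13 as reactive genes, among 35142 genes to which the transcript values could be summed. All 38 were found in the annotation, and all 38 passed the filter on low counts of 1 or more counts scaled to the library total (CPM) in 2 or more cultures, Gjb6 only through its stimulated cultures. The identity genes hold amino acid transporters and glutamine synthetase, channels and junction proteins, metabolic enzymes and regulators, secreted proteins, and genes of Bergmann glia and immature astroglia. The reactive genes hold the intermediate filaments Gfap, Vim and Nes, 6 genes induced in most forms of reactivity (called pan-reactive), and 4 genes usually assigned to the neurotoxic A1 or the ischemia-related A2 pattern.

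Astrocytes take up glutamate and GABA, buffer potassium and water, and are joined to each other by gap junctions. After injury or under inflammatory cytokines they enlarge their intermediate filament network and secrete acute-phase proteins such as lipocalin-2, and strong reactivity can be accompanied by loss of transporters and channels. STAT3 and NF-kB are the transcription factors best known for driving the reactive program, whereas the IL-12 receptor acts mainly through STAT4.

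Bulk RNA sequencing was performed on 15 cultures of dissociated cells from the cerebellum of wild-type C57BL/6 pups aged 0 to 4 days after birth. The cells were kept in Neurobasal Plus medium with B27 Plus, and at day 14 in vitro 5 cultures received recombinant murine IL-12p70 at 30 ng/ml for 18 h, 5 received it at 100 ng/ml, and 5 were left unstimulated. The total estimated count was 25746096 to 38435850 reads per culture. The labels do not say whether the cultures of a group came from separate animals, so p-values measure only the spread between these cultures, and both concentrations were compared with the same unstimulated cultures.

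The labels call the cells neurons, and the data show mixed cultures in which glial transcripts dominated. Vim (3361 TPM, an abundance scaled to library size and transcript length) and Gfap (2366 TPM) ranked 24 and 39 among all 35142 genes by mean TPM in unstimulated cultures. Of the TPM of Vim, 46.8% was assigned to Vim-203, annotated as a retained intron, which held 14.9% of the estimated counts of Vim. The 25 identity genes summed to 6088 TPM (5617 to 6456 TPM over 5 cultures) and the 13 reactive genes to 7036 TPM (6414 to 7351 TPM). In the same cultures, 14 microglial markers summed to 10818 TPM and 12 markers of the oligodendrocyte lineage to 8524 TPM. The 15 markers of cerebellar neurons summed to 316 TPM, with a median of 5.53 TPM per gene. Rbfox3, which encodes the neuronal nuclear protein NeuN, was at 3.42 TPM and the Purkinje cell gene Pcp2 near 0 at 0.0412 TPM. Both were below that median, so other, higher markers of the list held nearly all of the sum. Summed TPM of the other marker lists was 1599 for choroid plexus and ependyma, 586 for fibroblasts and meninges, 484 for proliferation genes and 64.2 for endothelium.

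**Figure D1:**
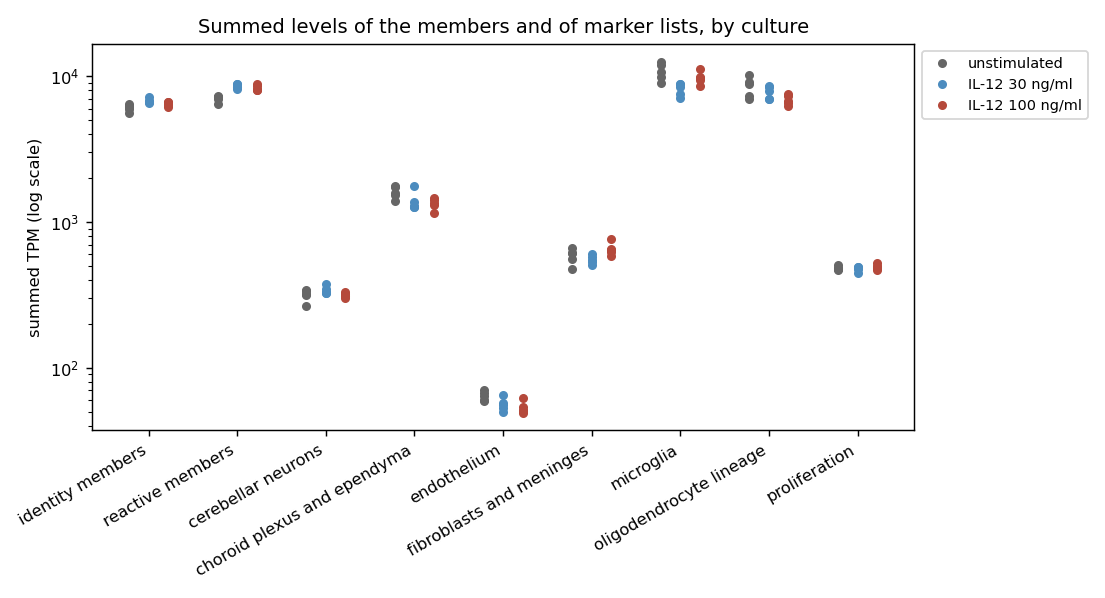
Summed TPM (log scale) of the identity and reactive genes and of the marker lists of other cell types and of proliferation, with 1 point per culture, 5 cultures per group, colored by IL-12 concentration. The reactive sum, mostly intermediate filaments, was higher in every stimulated culture than in the unstimulated ones. The identity sum overlapped the unstimulated range at 100 ng/ml and lay above it at 30 ng/ml. The microglial sum was lower at 30 ng/ml, between 7125 and 8905 TPM.

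A subset of the reactive genes rose after IL-12, and Gja1 was the only identity gene called lower in edgeR's quasi-likelihood test. An alternative test, DESeq2, also called Sox9 and Hopx lower at 100 ng/ml, and Gfap, Vim and Ptx3 higher. The likelihood-ratio test of edgeR also called Sox9 lower, and Gfap and Ptx3 higher, at that concentration. Of 20 further astrocyte-enriched genes, 3 fell at 100 ng/ml in edgeR. The summed level of the reactive genes was 8201 to 8830 TPM with 30 ng/ml and 8054 to 8894 TPM with 100 ng/ml, above every unstimulated culture. Most of that sum was the intermediate filaments, with means of 5952, 7139 and 6718 TPM at 0, 30 and 100 ng/ml. The pan-reactive members summed to 943, 1249 and 1497 TPM, and the A1 or A2 members to 142, 145 and 141 TPM. The identity genes summed to 6583 to 7232 TPM and 6169 to 6666 TPM. At 100 ng/ml, 5 of 13 reactive genes rose and 0 fell, while 7 of 25 identity genes rose and 1 fell (edgeR's quasi-likelihood test, false discovery rate, FDR, under 0.05 over 15360 genes). Of all genes tested, 9.77% were called in this comparison, 5.83% higher and 3.93% lower. At 30 ng/ml, 6 reactive genes rose and 0 fell, and 5 identity genes rose and 0 fell, against 7.87% of all genes, 4.16% higher and 3.71% lower. In the mean of both concentrations, 8 reactive genes rose, and 8 identity genes rose and 1 fell, against 11.9% of all genes, 6.68% higher and 5.21% lower. In bulk RNA, fewer cells of a type and less RNA per cell cannot be told apart.

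The genes called were 32% of identity and 38.5% of reactive genes at 100 ng/ml, 20% and 46.2% at 30 ng/ml, and 36% and 61.5% in the mean, and the difference between the classes was not tested. The members were chosen with earlier results of these data known, so no conclusion is drawn from these shares beside that of all genes. Over all 13 reactive genes the median log2 fold change was 0.21 (100 ng/ml) and 0.22 (30 ng/ml). Over the 25 identity genes it was 0.04 and 0.07, and over all 15360 genes it was -0.0038 and 0.00012. Of the 5 reactive genes called at 100 ng/ml, 4 changed by at least 0.5 on the log2 scale, compared with 2 of the 8 identity genes. Both of these identity genes, Gjb6 and Slc7a10, were among the members with the lowest levels, and Gjb6 entered the test only because stimulated cultures reached the filter, which favors a rise. Fold changes were above 0 for 12 of 13 reactive genes at each concentration, and for 15 of 25 identity genes at 100 ng/ml and 20 of 25 at 30 ng/ml.

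**Figure D2:**
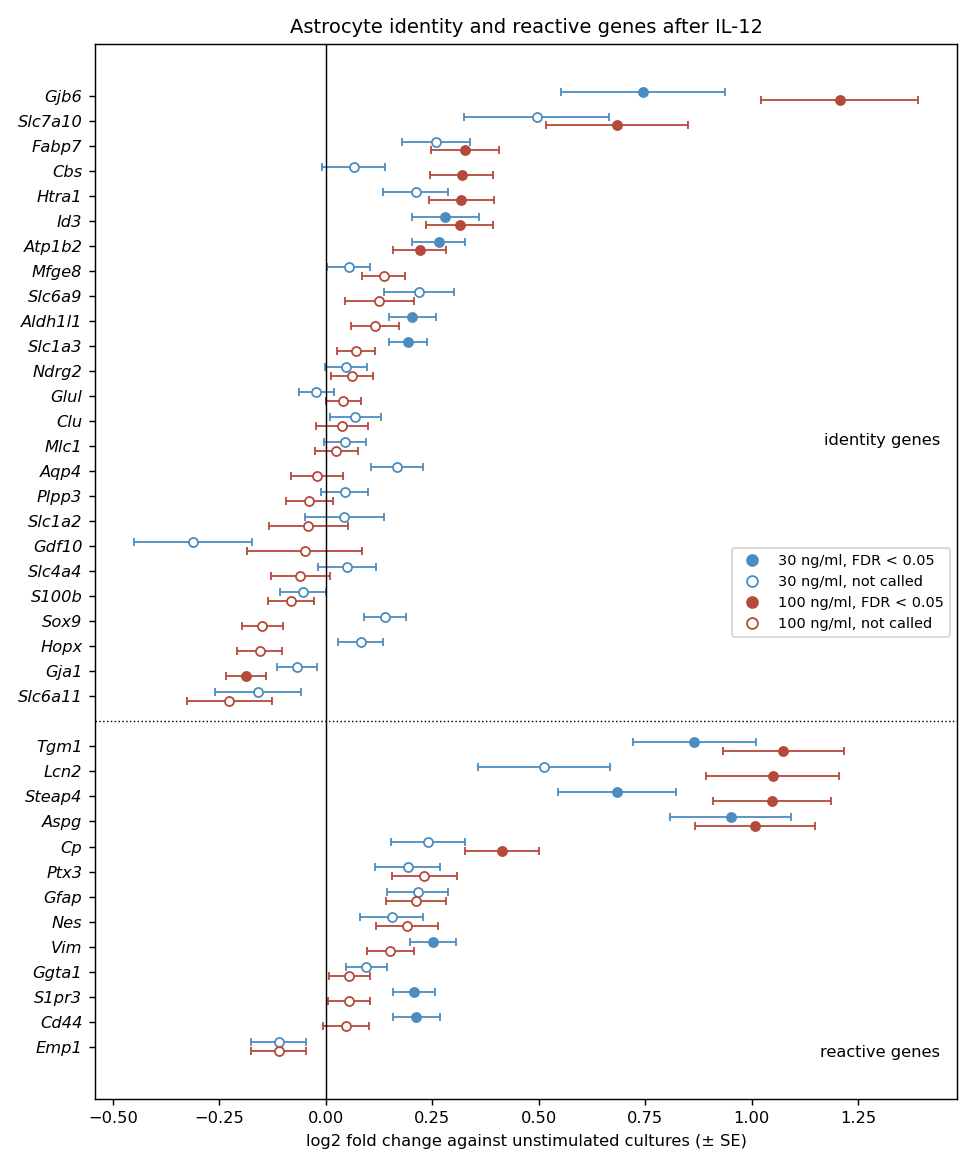
Log2 fold change against unstimulated cultures, with its standard error, for the 25 identity genes (above the dotted line) and the 13 reactive genes (below it) at 30 and 100 ng/ml, with 5 cultures per group and filled points where the FDR was under 0.05. Tgm1, Lcn2, Steap4 and Aspg lie near 1 at 100 ng/ml, and apart from Gjb6 and Slc7a10 the identity genes lie between -0.31 and 0.33.

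Among the pan-reactive genes, Lcn2 showed the largest rise in transcript number. Lcn2 encodes lipocalin-2, a secreted protein that binds bacterial siderophores. Its TMM-scaled level was 184, 206, 257, 141 and 194 CPM in the unstimulated cultures. It was 317, 302, 347, 225 and 211 CPM at 30 ng/ml and 456, 411, 320, 363 and 483 CPM at 100 ng/ml. Every culture at 100 ng/ml was above every unstimulated culture, whereas 2 cultures at 30 ng/ml lay inside the unstimulated range. The 100 ng/ml group differed by a log2 fold change of 1.05 ± 0.16 (SE, FDR 0.000451, edgeR) and the 30 ng/ml group by 0.51 ± 0.15, just short of a call (FDR 0.0501). Leaving out unstimulated replicate 3 brought the latter to an FDR of 0.0262, 30 ng/ml replicate 4 to 0.0385 and replicate 5 to 0.0308, and 100 ng/ml replicates 2 and 3 to 0.0492 and 0.0434. In all, 11 of 25 alternatives called Lcn2 at 30 ng/ml, among them DESeq2 (FDR 0.0456). In TPM, Lcn2 went from 402 ± 82.0 (SD, n = 5) to 827 ± 137 at 100 ng/ml, above the neuronal marker list as a whole.

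Steap4, which encodes a metalloreductase that reduces iron and copper, moved in the same way at a level 31.3 times lower in TPM. The unstimulated cultures held 27.3, 27.9, 30.7, 17.3 and 26.6 CPM, those with 30 ng/ml 47.2, 41.7, 50.5, 34.8 and 34.3 CPM, and those at 100 ng/ml 52.2, 62.4, 46.1, 47.0 and 60.9 CPM. No stimulated culture reached down to the unstimulated range. The log2 fold change was 0.68 ± 0.14 with 30 ng/ml (FDR 0.00665) and 1.05 ± 0.14 with 100 ng/ml (FDR 0.000164). The difference between the concentrations was not called for either gene (100 against 30 ng/ml, log2 difference 0.37 for Steap4, FDR 0.270, and 0.54 for Lcn2, FDR 0.157).

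Aspg, the asparaginase gene, roughly doubled at both concentrations from a low level. It was at 2.38, 3.08, 3.21, 3.19 and 2.48 CPM in unstimulated cultures, at 5.68, 5.80, 6.10, 5.02 and 5.06 CPM at 30 ng/ml, and at 7.90, 5.13, 4.57, 5.08 and 6.03 CPM at 100 ng/ml. Both stimulated groups lay above the unstimulated one and overlapped each other, and the log2 fold change was 0.95 ± 0.14 with 30 ng/ml (FDR 0.000792) and 1.01 ± 0.14 with 100 ng/ml (FDR 0.000265). Tgm1, a transglutaminase gene counted with the A2 pattern, behaved likewise. Its level was 2.82, 2.29, 2.48, 2.90 and 2.68 CPM without stimulation, 4.06, 5.49, 5.54, 4.47 and 4.53 CPM at 30 ng/ml and 5.83, 6.10, 3.69, 5.52 and 6.67 CPM at 100 ng/ml. Every stimulated culture was above the highest unstimulated one, with a log2 fold change of 0.86 ± 0.14 with 30 ng/ml (FDR 0.00168) and 1.07 ± 0.14 with 100 ng/ml (FDR 0.000173). In TPM, Aspg went from 3.30 to 5.97 and Tgm1 from 1.72 to 3.40 at 100 ng/ml.

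Lcn2, Steap4, Aspg and Tgm1 each changed by about 1 on the log2 scale at 100 ng/ml, so the 250 bases before a start site are shown for each of them. The sequences are from RefSeq on GRCm38.p6, a different build from the gene annotation used for the counts, and are written 5′ to 3′ on the strand of the gene. Lcn2 lies at chr2:32387740-32387989 on the minus strand, Steap4 at chr5:7960222-7960471 on the plus strand, Aspg at chr12:112106433-112106682 on the plus strand and Tgm1 (the first of its windows) at chr14:55713493-55713742 on the minus strand. Capitals mark matches on either strand to 4 motifs that were searched, namely TTCNNNGAA (STAT factors), GGANTTTCC (NF-kB), TGANTCA (AP-1) and TTGGCA (nuclear factor I, NFI).
Lcn2: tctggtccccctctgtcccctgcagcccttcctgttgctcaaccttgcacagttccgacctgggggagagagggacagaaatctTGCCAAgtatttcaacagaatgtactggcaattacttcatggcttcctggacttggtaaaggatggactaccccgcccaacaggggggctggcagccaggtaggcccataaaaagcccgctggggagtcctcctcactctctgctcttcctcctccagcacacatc
Steap4: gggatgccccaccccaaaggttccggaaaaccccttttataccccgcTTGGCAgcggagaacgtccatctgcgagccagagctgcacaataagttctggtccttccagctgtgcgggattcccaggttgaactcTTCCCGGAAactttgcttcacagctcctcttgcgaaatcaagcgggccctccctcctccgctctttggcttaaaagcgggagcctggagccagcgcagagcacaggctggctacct
Aspg: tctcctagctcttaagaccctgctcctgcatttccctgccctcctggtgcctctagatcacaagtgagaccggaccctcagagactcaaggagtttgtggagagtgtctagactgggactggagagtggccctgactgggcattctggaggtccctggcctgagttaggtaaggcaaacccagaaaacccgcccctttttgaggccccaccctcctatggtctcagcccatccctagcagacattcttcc
Tgm1: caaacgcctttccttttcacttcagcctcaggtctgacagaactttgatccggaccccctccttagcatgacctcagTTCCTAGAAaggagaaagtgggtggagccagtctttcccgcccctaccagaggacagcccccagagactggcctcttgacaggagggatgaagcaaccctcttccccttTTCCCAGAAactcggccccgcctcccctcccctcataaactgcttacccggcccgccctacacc

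The STAT letters stood 116 bases before the start of Steap4, and 173 and 64 bases before the start of Tgm1, and the NFI letters stood 166 bases before the start of Lcn2 and 203 bases before the start of Steap4. None of the 4 motifs was in the window shown for Aspg. Windows of 300 bases (250 before and 50 after a start) were at hand for 34 of the 38 members, with 16 windows of the 13 reactive genes and 27 windows of 21 identity genes. The STAT letters were in 4 of the 16 reactive windows (Emp1, Gfap, Steap4 and Tgm1), in 1 of the 27 identity windows (Slc1a3) and in 8.30% of all 32851 windows. In Gfap the match began 2 bases before the start site. The NFI letters were in 4 reactive windows and 1 identity window against 14.1% of all windows, the AP-1 letters in 2 and 1 against 7.81%, and the NF-kB letters in 0 and 0 against 1.25%. STAT matches thus stood in 2 genes that changed by about 1 (Steap4 and Tgm1) and also in Emp1, whose values were below those of unstimulated cultures on average.

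Cp, which encodes the ferroxidase ceruloplasmin, was the fifth reactive gene to rise at 100 ng/ml. The unstimulated cultures ranged from 486 to 655 CPM, and the stimulated ones from 648 to 748 CPM at 30 ng/ml and from 664 to 951 CPM at 100 ng/ml. Cultures at 100 ng/ml did not overlap the unstimulated ones. The log2 fold change was 0.41 ± 0.09 with 100 ng/ml (FDR 0.00639) and 0.24 ± 0.09 with 30 ng/ml, where it was not called (FDR 0.0999, or 0.0462 without 100 ng/ml replicate 2, whose 951 CPM was the highest value). Unstimulated replicate 4 had the lowest level of the 15 cultures for Lcn2, Steap4 and Cp, and without it each of these genes was still called at 100 ng/ml. Cp overlaps Hps3 on the opposite strand, and whether the program that made the estimates used strand is not stated in the sources used here.

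**Figure D3:**
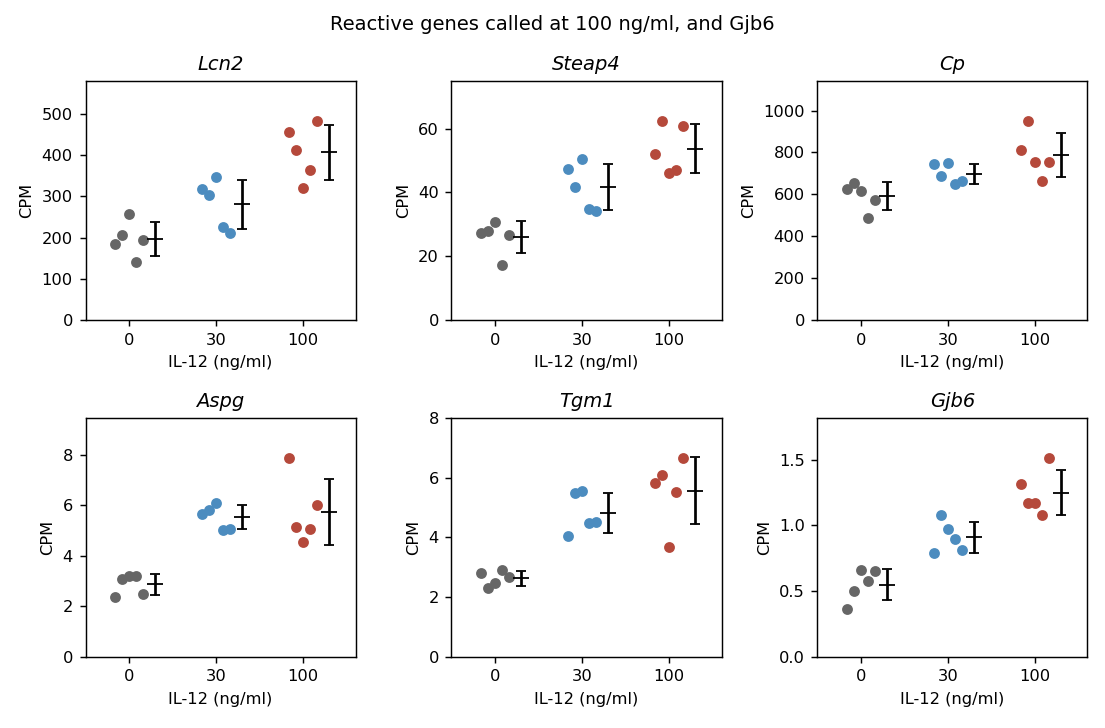
TMM-scaled CPM of Lcn2, Steap4, Cp, Aspg, Tgm1 and Gjb6 in each of the 15 cultures against IL-12 concentration, with the mean and SD of 5 cultures beside the points and axes starting at 0. At 100 ng/ml all 5 cultures lie above all unstimulated cultures in each panel, and at 30 ng/ml Lcn2 and Cp overlap the unstimulated range.

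The transcripts of Cp did not change in proportion, a pattern that was singled out after its values had been seen. Ceruloplasmin is made as a secreted protein and as a membrane-anchored form that differs at the carboxy terminus and is typical of astrocytes. Cp-202, with a coding length of 3183 bases (1061 residues), was at 79.7 ± 8.75 TPM (SD, n = 5) in unstimulated cultures, 111 ± 10.1 TPM at 30 ng/ml and 123 ± 13.6 TPM at 100 ng/ml. The cultures ranged from 66.2 to 87.9, from 96.8 to 119 and from 108 to 140 TPM, so the stimulated groups did not overlap the unstimulated one. Cp-201, which ends 16.6 kb further downstream and codes for 1085 residues, was at 72.7 ± 7.96, 70.7 ± 8.20 and 69.6 ± 7.86 TPM, with fully overlapping groups. Cp-204, which also codes for 1085 residues, was at 31.0, 31.4 and 32.9 TPM. Cp-203, of 1060 residues, went from 49.1 to 65.2 and 80.9 TPM, with a wide spread at 100 ng/ml (61.0 to 126 TPM).

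As a result, Cp-201 made up 24.3% of Cp TPM in unstimulated cultures (22.2% to 26.8%), 19.0% at 30 ng/ml (16.4% to 21.3%) and 17.2% at 100 ng/ml (15.5% to 19.8%). No stimulated culture reached the unstimulated range. Which of these transcripts encodes the anchored form was not determined here, no test was run on transcript shares, and shares depend on how the program divided reads between transcripts. Among the 43 transcripts of the 16 members with at least 2 transcripts above 10% of the gene's TPM, the shares of 2 did not overlap between 100 ng/ml and unstimulated cultures, both of Cp (Cp-201 and Cp-204), and the same 2 did not overlap at 30 ng/ml. By the same rule, 0.861% of 24746 transcripts of all genes tested did not overlap at 100 ng/ml and 0.841% at 30 ng/ml. The shares of low genes such as Gjb6, Slc7a10 and Aspg varied widely within groups.

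**Figure D4:**
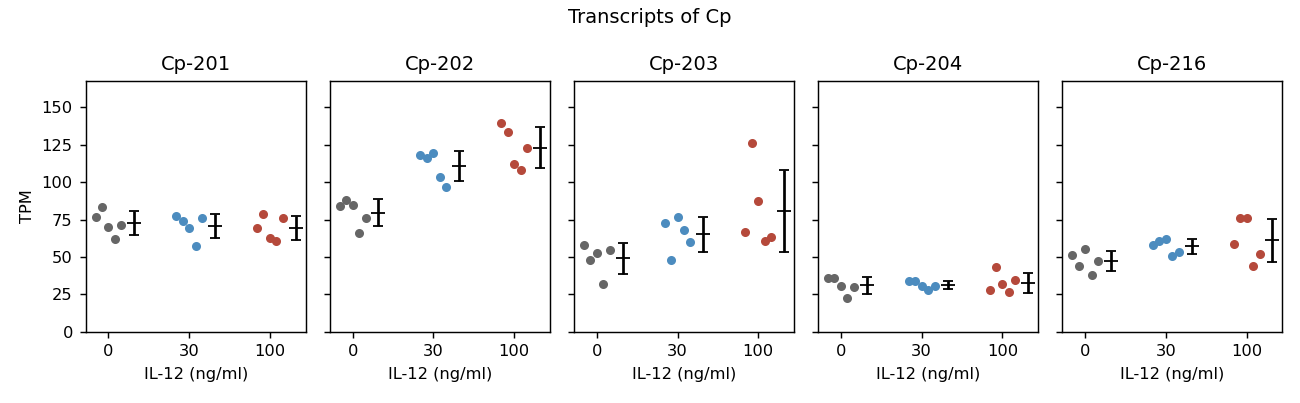
TPM of 5 transcripts of Cp in each culture against IL-12 concentration, with the mean and SD of 5 cultures beside the points. Cp-216 is annotated as a retained intron. Cp-202 is higher in every stimulated culture than in any unstimulated one, whereas Cp-201 and Cp-204 overlap in all groups.

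The remaining pan-reactive members, Cd44 and S1pr3, rose at 30 ng/ml but were not called at 100 ng/ml. Cd44 encodes the hyaluronan receptor and S1pr3 a receptor for sphingosine 1-phosphate. S1pr3 was between 386 and 435 CPM in unstimulated cultures and between 457 and 489 CPM at 30 ng/ml, without overlap (log2 fold change 0.21 ± 0.05, FDR 0.0166). With 100 ng/ml it ranged from 390 to 463 CPM (0.06 ± 0.05, FDR 0.526). Cd44 was between 183 and 205 CPM without stimulation and between 205 and 243 CPM at 30 ng/ml, with 1 culture inside the unstimulated range (0.21 ± 0.05, FDR 0.0221). With 100 ng/ml it was between 188 and 216 CPM (0.05 ± 0.05, FDR 0.624). The call of Cd44 was lost without unstimulated replicate 4 (FDR 0.0643) or without replicate 1, 2 or 3 at 30 ng/ml (0.0624, 0.0611 and 0.0573). The direct comparison of 100 with 30 ng/ml was not called for either gene (FDR 0.213 for Cd44 and 0.211 for S1pr3).

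None of the A1 and A2 members other than Tgm1 was called at either concentration alone in the quasi-likelihood test of all cultures. Ptx3, which encodes the soluble pattern recognition protein pentraxin 3, was at 21.8 to 25.3 CPM in unstimulated cultures, 22.8 to 30.9 CPM at 30 ng/ml and 25.3 to 31.3 CPM at 100 ng/ml. Its cultures at 100 ng/ml stood barely above the unstimulated ones, and it was called only in the mean of both concentrations (log2 fold change 0.21 ± 0.07, FDR 0.0463), a call lost in 15 of 24 alternatives, with an FDR up to 0.128 without unstimulated replicate 3. Ggta1, a galactosyltransferase gene of the A1 pattern, had a log2 fold change of 0.09 with 30 ng/ml and 0.06 with 100 ng/ml, and Emp1, a membrane protein gene of the A2 pattern, of -0.11 at both. Neither was called.

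The intermediate filaments are the classical markers of reactive astrocytes, and their mean CPM was 11.1% to 19.1% higher in the stimulated groups. Gfap was at 3439, 3723, 4048, 3380 and 3608 CPM in unstimulated cultures, at 4593, 4074, 4568, 4161 and 3734 CPM at 30 ng/ml, and at 4722, 4065, 3684, 4370 and 4238 CPM at 100 ng/ml. The groups overlapped, since unstimulated replicate 3 lay above 1 culture of each stimulated group and replicate 2 above 1 culture at 100 ng/ml. The log2 fold change was 0.22 ± 0.07 with 30 ng/ml (FDR 0.0697) and 0.21 ± 0.07 with 100 ng/ml (FDR 0.0658), neither of them called, and 0.21 ± 0.06 in the mean of both (FDR 0.0313). That call was lost without unstimulated replicate 1, 4 or 5 (FDR 0.0882, 0.0871 and 0.0735) and without 30 ng/ml replicate 3 (0.0520). At 100 ng/ml, Gfap was called without unstimulated replicate 3 (FDR 0.0419) and without replicate 2 or 3 of that group (0.0478 and 0.0341), and at 30 ng/ml without replicate 5 of that group (0.0421).

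Vim, the most abundant member, was at 2258, 2515, 2289, 2292 and 2375 CPM without stimulation, and at 2688, 2713, 2803, 2908 and 2853 CPM at 30 ng/ml. These groups did not overlap (log2 fold change 0.25 ± 0.05, FDR 0.00918). At 100 ng/ml it was at 2861, 2274, 2743, 2575 and 2576 CPM, with replicate 2 inside the unstimulated range (0.15 ± 0.05, FDR 0.0860, or 0.00908 without that culture). Nes, which encodes nestin, an intermediate filament of progenitors and reactive astrocytes, was not called at 30 ng/ml (0.15 ± 0.07, FDR 0.220) or 100 ng/ml (0.19 ± 0.07, FDR 0.107, or 0.0214 without replicate 4 of that group). The 3 filament genes thus differed from Lcn2, Steap4, Aspg and Tgm1 in size, with a largest log2 fold change of 0.25 (Vim at 30 ng/ml).

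**Figure D5:**
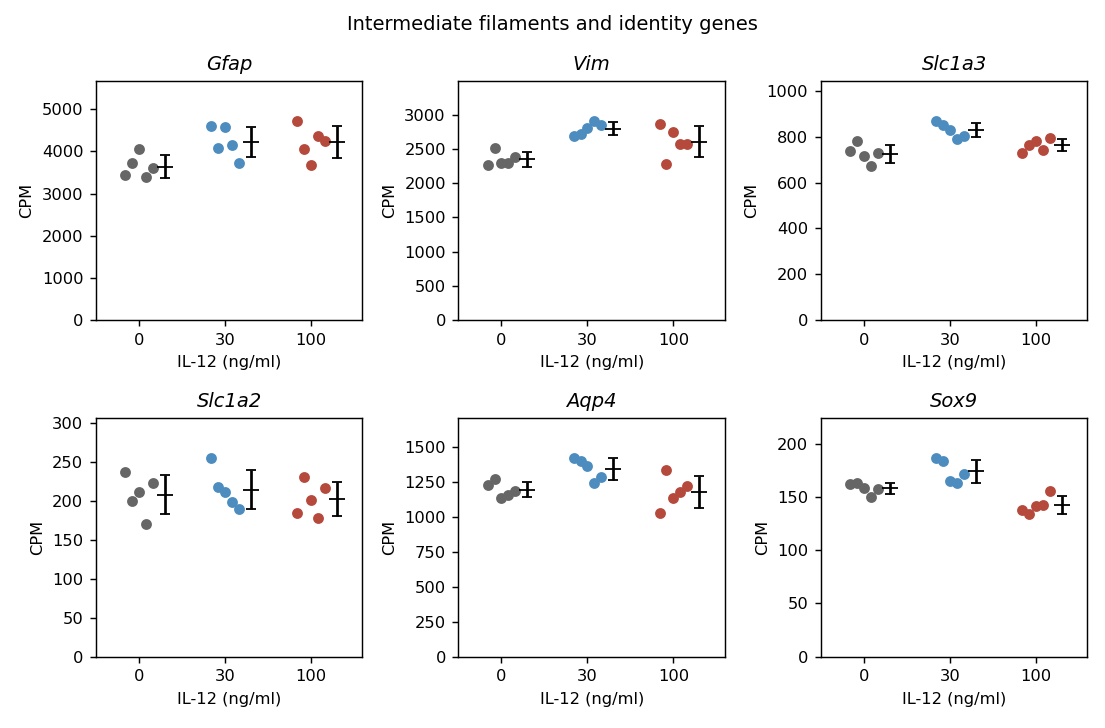
TMM-scaled CPM of Gfap, Vim, Slc1a3, Slc1a2, Aqp4 and Sox9 in each of the 15 cultures against IL-12 concentration, with the mean and SD of 5 cultures beside the points and axes starting at 0. Vim and Slc1a3 stand above the unstimulated cultures at 30 ng/ml, Slc1a2 overlaps in all groups, and Sox9 is lower at 100 than at 30 ng/ml.

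The glutamate transporters clear synaptic glutamate, and neither was called lower. Slc1a2 (GLT-1) was at 237, 200, 211, 170 and 223 CPM in unstimulated cultures, at 255, 218, 211, 198 and 190 CPM at 30 ng/ml and at 184, 231, 200.6, 178 and 217 CPM at 100 ng/ml. All groups overlapped, with a log2 fold change of 0.04 ± 0.09 with 30 ng/ml (FDR 0.833) and -0.04 ± 0.09 with 100 ng/ml (FDR 0.825). Slc1a3 (GLAST) was about 9 times higher per length (283 against 31.5 TPM in unstimulated cultures). It was at 739, 779, 714, 671 and 727 CPM without stimulation, at 869, 851, 831, 792 and 803 CPM at 30 ng/ml, and at 728, 765, 781, 744 and 794 CPM at 100 ng/ml. The cultures at 30 ng/ml were all above the unstimulated ones (0.19 ± 0.04, FDR 0.0137), and those at 100 ng/ml overlapped them (0.07 ± 0.04, FDR 0.340).

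The other members of this group take up or make neurotransmitter amino acids. Glul, the glutamine synthetase gene, differed by -0.02 (30 ng/ml) and 0.04 (100 ng/ml) on the log2 scale. The GABA transporter gene Slc6a11 had values of -0.16 and -0.23 and the glycine transporter gene Slc6a9 of 0.22 and 0.13, and none of these 3 genes was called. Slc7a10, the transporter of alanine, serine and cysteine, was at 1.33 to 2.18 CPM in unstimulated cultures and at 2.58 to 4.04 CPM at 100 ng/ml, without overlap (0.68 ± 0.17, FDR 0.0159). Without 100 ng/ml replicate 1, its highest culture, the FDR was 0.0511. With 30 ng/ml it ranged from 2.13 to 3.43 CPM (0.49 ± 0.17, FDR 0.0821). Slc7a10 overlaps Lrp3 on the opposite strand, which was at 23 TPM against 1.99 TPM for Slc7a10.

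The 2 connexin genes moved in opposite directions at 100 ng/ml. Gja1, which encodes connexin 43, the main gap junction protein of astrocytes, was the only member called lower in the quasi-likelihood test. It was at 288, 299, 280.5, 280.5 and 294 CPM in unstimulated cultures and at 250, 247, 253, 245 and 271 CPM at 100 ng/ml, without overlap (log2 fold change -0.19 ± 0.05, FDR 0.0168). Cultures at 30 ng/ml ranged from 258 to 298 CPM (-0.07 ± 0.05, FDR 0.425). The call of Gja1 at 100 ng/ml held with any 1 culture left out but was lost with no filter on low counts (FDR 0.0531). In the mean of both concentrations its call was lost on leaving out any 1 unstimulated culture (FDR 0.0601 to 0.109). That call was also lost without 30 ng/ml replicate 3, 4 or 5 (0.0730 to 0.0833) or 100 ng/ml replicate 1, 3 or 4 (0.0616 to 0.0736). Gjb6, which encodes connexin 30, was the lowest member, at 0.461 TPM. It was at 0.366, 0.502, 0.657, 0.574 and 0.650 CPM without stimulation, at 0.792, 1.08, 0.973, 0.893 and 0.814 CPM at 30 ng/ml and at 1.32, 1.17, 1.17, 1.08 and 1.52 CPM at 100 ng/ml. Every stimulated culture was above every unstimulated one, on 14 to 52 reads per culture (0.74 ± 0.19, FDR 0.0238, at 30 ng/ml and 1.21 ± 0.18, FDR 0.000540, at 100 ng/ml). Gjb6 passed the filter only through stimulated cultures, since 1 CPM was reached by no culture without stimulation, by 1 that received 30 ng/ml and by 5 that received 100 ng/ml, and such a filter favors a rise. With no filter on low counts the FDR was 0.0513 at 30 ng/ml, where the call was lost, and 0.000701 at 100 ng/ml. The call at 30 ng/ml was also lost with length-scaled TPM (FDR 0.0807) and without unstimulated replicate 1 or 30 ng/ml replicate 2 (0.0649 and 0.0579). In TPM, connexin 43 transcripts were 118 times more abundant, at 130 against 1.10 TPM at 100 ng/ml.

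Aqp4, which encodes the water channel of astrocyte endfeet, was at 1226, 1270, 1138, 1159 and 1183 CPM in unstimulated cultures. It was at 1424, 1396, 1363, 1245 and 1283 CPM at 30 ng/ml and at 1026, 1337, 1134, 1175 and 1220 CPM at 100 ng/ml. The groups overlapped and no call was made (log2 fold change 0.17 ± 0.06, FDR 0.101, and -0.02 ± 0.06, FDR 0.872). For 30 ng/ml the FDR was 0.0495 without 100 ng/ml replicate 2. Atp1b2, a beta subunit of the sodium-potassium pump, rose at both concentrations. It was at 749 to 863 CPM without stimulation, at 909 to 1094 CPM at 30 ng/ml (0.27 ± 0.06, FDR 0.0142) and at 866 to 1061 CPM at 100 ng/ml (0.22 ± 0.06, FDR 0.0329). Neither stimulated group overlapped the unstimulated one, though the call at 100 ng/ml was lost on leaving out unstimulated replicate 2, 3, 4 or 5 or replicate 1, 3, 4 or 5 of that group (FDR 0.0506 to 0.0821). The bicarbonate cotransporter gene Slc4a4 and Mlc1, a membrane protein gene of astrocyte endfeet, stayed within 0.06 of 0 on the log2 scale and were not called.

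Of the metabolic genes and regulators, Cbs rose at 100 ng/ml. Cbs encodes cystathionine beta-synthase of the transsulfuration pathway and was at 17.2 to 18.3 CPM without stimulation, at 16.8 to 21.6 CPM at 30 ng/ml and at 19.4 to 25.7 CPM at 100 ng/ml. The cultures at 100 ng/ml did not overlap the unstimulated ones (log2 fold change 0.32 ± 0.07, FDR 0.0113), while those at 30 ng/ml did (0.07 ± 0.07, FDR 0.662). Aldh1l1, a folate enzyme gene used as a general astrocyte marker, was at 303, 341, 316, 296 and 319 CPM in unstimulated cultures, 369, 340, 369, 371 and 365 CPM at 30 ng/ml, and 375, 305, 368, 322 and 338 CPM at 100 ng/ml. All cultures at 30 ng/ml but replicate 2 were above the unstimulated range (0.20 ± 0.06, FDR 0.0321). This call was lost without unstimulated replicate 1, 3, 4 or 5 or replicate 1, 3, 4 or 5 of that group (FDR 0.0588 to 0.0863). The gene was not called at 100 ng/ml (0.12 ± 0.06, FDR 0.202, or 0.0449 without replicate 2 of that group).

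Sox9, a transcription factor of astrocytes and their progenitors, was the only member called between the concentrations. Of all genes tested, 0.579% were called in that comparison. Sox9 was at 162, 163, 158, 149 and 157 CPM without stimulation, 187, 183, 165, 163 and 171 CPM at 30 ng/ml and 138, 134, 142, 143 and 156 CPM at 100 ng/ml. All cultures at 100 ng/ml were below all at 30 ng/ml (log2 difference -0.29 ± 0.06, FDR 0.00762). Against the unstimulated cultures, which lay between, the values were 0.14 ± 0.05 with 30 ng/ml (FDR 0.0881) and -0.15 ± 0.05 with 100 ng/ml (FDR 0.0623, or 0.0278 without replicate 5 of that group). DESeq2 and the likelihood-ratio test of edgeR called Sox9 lower at 100 ng/ml (FDR 0.0267 and 0.0449). The calcium-binding protein gene S100b, Ndrg2 and the lipid phosphatase gene Plpp3 were between -0.08 and 0.06 on the log2 scale at both concentrations and were not called.

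Of the secreted proteins, 1 of 3 was called. Htra1, a secreted serine protease gene, was at 65.3 to 74.2 CPM without stimulation and at 76.3 to 96.9 CPM at 100 ng/ml, without overlap (log2 fold change 0.32 ± 0.08, FDR 0.0149). With 30 ng/ml it was at 70.1 to 89.2 CPM (0.21 ± 0.08, FDR 0.103). Htra1 overlaps Fgfr2 on the opposite strand, which was at 28 TPM against 80.3 TPM for Htra1 in unstimulated cultures. Htra1-205, annotated without a defined coding sequence, held 53.7% of Htra1 TPM in unstimulated cultures. Clu, which encodes the chaperone clusterin and was the highest identity gene at 1179 TPM, had values of 0.07 and 0.04 and Mfge8, a phagocytic bridging protein gene, of 0.05 and 0.14, with no call. Without 100 ng/ml replicate 2, Mfge8 was called at 100 ng/ml (FDR 0.00458).

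Fabp7, the brain fatty acid-binding protein gene of radial and Bergmann glia, was at 455, 524, 461, 451 and 406 CPM in unstimulated cultures, 564, 517, 561, 570 and 538 CPM at 30 ng/ml and 654, 596, 645, 487 and 500 CPM at 100 ng/ml. Unstimulated replicate 2 overlapped both stimulated groups. The log2 fold change was 0.33 ± 0.08 with 100 ng/ml (FDR 0.0161) and 0.26 ± 0.08 with 30 ng/ml (FDR 0.0552, or 0.0207 without unstimulated replicate 2). It was also called at 30 ng/ml without 100 ng/ml replicate 1, 3, 4 or 5 (FDR 0.0379 to 0.0477). Id3, an inhibitor of differentiation downstream of bone morphogenetic proteins, was at 95.5 to 114 CPM without stimulation, 109 to 146 CPM at 30 ng/ml and 116 to 150 CPM at 100 ng/ml. The call at 30 ng/ml (0.28 ± 0.08, FDR 0.0358) was lost without unstimulated replicate 1, 3 or 5 or replicate 1, 3, 4 or 5 of that group (FDR 0.0508 to 0.0896). That at 100 ng/ml (0.31 ± 0.08, FDR 0.0180) was lost without unstimulated replicate 1 or 5 or replicate 1 of that group (FDR 0.0507 to 0.0523). Hopx, of Bergmann glia, was at 0.08 and -0.16 against unstimulated cultures, and Gdf10, another Bergmann glia gene, was at -0.31 and -0.05, with no call in edgeR. DESeq2 called Hopx lower at 100 ng/ml (FDR 0.0359).

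Further genes of the same programs were measured beside the members, on lists chosen with earlier results of these data known. Of all genes tested, 9.77% were called at 100 ng/ml and 7.87% at 30 ng/ml. Among 20 further astrocyte-enriched genes, 1 rose and 3 fell at 100 ng/ml and 2 rose at 30 ng/ml. Aldoc, the aldolase gene of astrocytes, rose at 100 ng/ml (log2 fold change 0.29 ± 0.06, FDR 0.00651), and the neurotensin receptor gene Ntsr2 (-0.31, FDR 0.0206), the mitochondrial carrier gene Slc25a18 (-0.23, FDR 0.0480) and the endothelin receptor gene Ednrb (-0.19, FDR 0.0433) fell. Of 5 further pan-reactive genes, 3 rose at 100 ng/ml and 3 at 30 ng/ml. Timp1, an inhibitor of metalloproteinases, had a log2 fold change of 0.99 ± 0.07 (FDR 1.56e-07) and the protease inhibitor gene Serpina3n of 0.59 ± 0.07 (FDR 8.60e-05) at 100 ng/ml, with mean levels from 43.5 to 85.7 TPM and from 302 to 448 TPM. Hspb1 rose by 0.38 at 100 ng/ml (FDR 0.00419). Osmr, a subunit of the oncostatin M receptor, was called at 30 ng/ml (0.17, FDR 0.0473), a call lost in 14 of 25 alternatives, and in the mean of both concentrations (0.16, FDR 0.0260), a call lost in 3 of 24, and the chemokine gene Cxcl10 was not called (0.21 ± 0.30, FDR 0.711, at 100 ng/ml).

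Of 10 further A1 genes that passed the filter, 2 rose and 1 fell at 100 ng/ml, and 1 rose and 1 fell at 30 ng/ml (median log2 fold change 0.12 and -0.05). The guanylate-binding protein gene Gbp2 was at 0.35 (FDR 0.00156) and the complement inhibitor gene Serping1 at 0.32 (FDR 0.0107), while the proteoglycan gene Srgn, which leukocytes and microglia also express, fell by 0.74 (FDR 0.000355). Of 8 further A2 genes, 3 rose at 100 ng/ml and 1 at 30 ng/ml (Sphk1), and none fell (median 0.19 and 0.18). The 3 genes were the sphingosine kinase gene Sphk1 (0.75, FDR 0.00112), Tm4sf1 (0.21, FDR 0.00539) and Cd14 (0.29, FDR 0.0116), a lipopolysaccharide coreceptor gene that microglia also express. Genes of the pan-reactive, A1 and A2 lists were thus among those called higher, while Srgn of the A1 list was called lower with the largest change named from that list.

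Markers of other cell types were also called against the unstimulated cultures, where 9.77% of all genes were called at 100 ng/ml and 7.87% at 30 ng/ml. In the direct comparison of 100 with 30 ng/ml, 0 genes of any marker list were called. There all 13 microglial markers tested had values above 0 (median 0.30), and 12 had an unadjusted p under 0.05 in edgeR. All 10 markers of fibroblasts and meninges were also above 0 (median 0.18), 5 with an unadjusted p under 0.05. Of all 15360 genes, 1944 had an unadjusted p under 0.05 in that comparison. Of 13 microglial markers tested, 9 fell at 30 ng/ml and 0 at 100 ng/ml, with Trem2 at -0.51 (FDR 0.00638) and C1qa at -0.43 (FDR 0.0173) at 30 ng/ml. Their sum was 8936 to 12620 TPM in unstimulated cultures, 7125 to 8905 TPM at 30 ng/ml and 8513 to 11197 TPM at 100 ng/ml. Of 12 markers of the oligodendrocyte lineage, 3 fell at 100 ng/ml, among them the myelin genes Mbp (-0.31, FDR 0.0239) and Mag (-0.30, FDR 0.0299), and 1 at 30 ng/ml (Cspg4), with sums of 6947 to 10282, 6974 to 8544 and 6221 to 7537 TPM. Of 8 proliferation genes, 0 were called at either concentration in edgeR (2 at 100 ng/ml and 1 at 30 ng/ml had an unadjusted p under 0.05). At 100 ng/ml, 11 of 13 microglial markers had values below 0 (median -0.13), and 1 had an unadjusted p under 0.05 in edgeR. At 30 ng/ml, all 13 had values below 0 (median -0.42), and 12 had an unadjusted p under 0.05.

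Among 14 markers of cerebellar neurons tested, 2 rose and 2 fell at 30 ng/ml and 1 rose and 1 fell at 100 ng/ml, with a median log2 fold change of -0.49 and -0.26. Values were below 0 for 10 of the 14 at each concentration. In edgeR, 11 at 30 ng/ml and 5 at 100 ng/ml had an unadjusted p under 0.05. Their sum was 267 to 340 TPM without stimulation, 325 to 377 TPM at 30 ng/ml and 302 to 331 TPM at 100 ng/ml. Endothelial markers fell in 2 of 7 genes at 30 ng/ml and in 1 at 100 ng/ml, and 1 of 7 markers of choroid plexus and ependyma fell at 30 ng/ml and 0 at 100 ng/ml. Of 10 markers of fibroblasts and meninges, 2 rose at 100 ng/ml (Col1a1 and Pdgfrb) and 0 were called at 30 ng/ml, where 5 had an unadjusted p under 0.05. Slc1a3, Aldh1l1, Vim, Cd44 and S1pr3 were called at 30 ng/ml, where the microglial sum was lower, and not at 100 ng/ml, although the comparison of the concentrations was not called for any of them. The part of the other cell types in the changes of the members was not tested.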

How the data were processed

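RNA was sequenced from 15 cultures as stranded poly(A) libraries. For each culture the authors deposited estimated counts and TPM of 121798 transcripts, made by a program not named in the sources used here. The methods and the submitters' processing notes describe STAR 2.7.8a and gene counts, which are another kind of value. Estimated counts and TPM were summed to genes with GENCODE release M39 on GRCm39 (99.0% of transcripts matched), and the counts were rounded. Unmatched transcripts, with 0.677% to 0.712% of a library, were left out. Total estimated counts limit the precision of genes with few reads such as Gjb6.

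Genes reaching 1 CPM in 2 or more cultures were kept and scaled with TMM. edgeR 4.0.16 (R 4.3.3) fitted all 3 groups together and gave quasi-likelihood tests, with Benjamini-Hochberg adjustment over 15360 genes and an FDR threshold of 0.05. CPM compare cultures and TPM compare genes. Values with ± are log2 fold changes with SE unless SD is stated. The test was checked on simulated counts. Alternatives used DESeq2 1.42.0, limma 3.58.1, other scaling, filters, thresholds and each culture left out. Motifs were searched with Python 3.11.15. All members were named. Values per culture, or their range in each group, were given for the called members and for Gfap, Aqp4, Slc1a2, Slc1a3, Aldh1l1, Vim and Lcn2, and from each further list up to 4 called genes, plus Serpina3n, Timp1, Osmr and Cxcl10. The members and lists were chosen with earlier results of these data known.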

Additional observations from a re-analysis of the deposited data

Results flagged for a closer look

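In the comparison of 100 with 30 ng/ml, Sox9 was lower by a log2 difference of -0.29 (FDR 0.00762, edgeR), and Cd14, named among the further A2 genes, was higher by 0.42 (FDR 0.00484). Both concentrations thus differed from each other in these genes, in opposite directions.

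In 3 of 114 groups of 5 cultures, 1 culture stood apart from the other 4 by Dixon's criterion for 5 values, which chance meets in about 1 of 20 groups. Atp1b2 was at 749 CPM in unstimulated replicate 4, against 834 to 863 CPM in the others. Aldh1l1 was at 340 CPM in 30 ng/ml replicate 2, against 365 to 371 CPM. Hopx was at 54.8 CPM in 100 ng/ml replicate 3, against 49.2 to 50.6 CPM.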

How the results depend on the processing

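Depth gave Gjb6 14 to 52 reads, Slc7a10 37 to 129, Tgm1 64 to 229 and Aspg 65 to 252 reads per culture. No member named as called changed direction under any alternative. Identity genes called at 100 ng/ml numbered 1 at an FDR under 0.01, and 5 to 10 with 1 culture left out. At 30 ng/ml they numbered 3 with length-scaled TPM, 0 at an FDR under 0.01 and 8 at 0.1, and 2 to 6 with 1 culture left out. In the mean they numbered 3 at 0.01, and 6 to 12 with 1 culture left out. Between the concentrations, 2 were called with RLE factors, library size alone, at least 10 counts in every culture, DESeq2, the likelihood-ratio test or an FDR under 0.1, and 1 to 2 with 1 culture left out. Reactive genes called at 100 ng/ml numbered 8 with DESeq2 or an FDR under 0.1, and 5 to 7 with 1 culture left out. At 30 ng/ml they numbered 5 to 8 with 1 culture left out, in the mean 4 at 0.01 and 6 to 9 with 1 culture left out, and between the concentrations 1 with the likelihood-ratio test and 0 with any culture left out.

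The median log2 fold change of reactive genes at 100 ng/ml was 0.32 with the intermediate filaments counted as identity genes. With 1 culture left out it was 0.17 to 0.25 at 100 ng/ml, 0.19 to 0.25 at 30 ng/ml and 0.19 to 0.22 in the mean, and for identity genes 0.03 to 0.07, 0.05 to 0.09 and 0.04 to 0.08. As shares of estimated counts, Cp-201 was at 31.1%, 25.1% and 22.8% in unstimulated cultures and at 30 and 100 ng/ml. Replicate numbers did not pair the cultures (correlations of -0.18 to 0.26, and 2 of 15 cultures closest to their own number). With the replicate number as a block, 8 identity and 5 reactive genes were called at 100 ng/ml, 5 and 8 at 30 ng/ml, and 7 and 6 in the mean.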
